A study of Mus musculus with 14 samples.

Results

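EpRas cells were compared with EpH4 cells after both lines had been treated with TGF-β, across all genes of the transcriptome. EpH4 is an epithelial cell line from the mouse mammary gland. EpRas cells were derived from it by transformation with H-RasG12V, an active form of the small GTPase H-Ras. Both lines received TGF-β3 at 1 ng/ml for 48 h and were measured by RNA-seq in 2 libraries each, so that the comparison rests on 4 of the 14 libraries of the study. EpH4 cells were cultured with 10% serum and EpRas cells with 4%, and the effect of the serum cannot be told apart from that of the transformation. The study describes the libraries of a group as biological replicates, and p-values measure the spread between them.

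Untreated cells of both lines were also measured, with 2 libraries each, and 6 libraries came from EpRas cells transfected with siRNAs. All 8 untransfected libraries entered a limma fit, in which the spread between libraries was estimated over the 4 groups, and the siRNA libraries were not used here. Of 23284 genes in the table, 9100 reached 5 FPKM in at least 1 of the 8 libraries and were tested. FPKM, the expression level calculated by the authors, counts sequenced fragments relative to exon length and to all mapped fragments of a library. All fold changes below are EpRas over EpH4 cells on the scale of log2(FPKM + 1), which understates the change of lowly expressed genes. A gene was called where its p-value, adjusted by the Benjamini-Hochberg method over the 9100 genes, was below 0.05.

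TGF-β is a cytokine that acts through serine/threonine kinase receptors and Smad transcription factors, and it arrests the growth of many epithelial cells. Together with an active Ras-ERK pathway, it is known for driving epithelial-mesenchymal transition (EMT), in which cells lose junctions, polarity and keratins and gain vimentin, N-cadherin, matrix proteins and motility. EpH4 and EpRas cells are a classical pair for this process, because the untransformed line keeps its epithelial form under TGF-β and the Ras-transformed line does not.

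The libraries differed in ways that the groups do not explain. The correlation of log2(FPKM + 1) between the 2 libraries was 0.982 in EpH4 cells and 0.912 in EpRas cells with TGF-β, and 55 and 510 genes, respectively, lay at least 2-fold apart between them. The relative depth, read from the smallest FPKM steps of weakly expressed genes, was 0.722 and 1.07 in the EpH4 libraries and 0.858 and 0.667 in the EpRas libraries. Hras1, which encodes H-Ras, was at 96.9 and 102 FPKM in the EpH4 libraries and 104 and 127 FPKM in the EpRas libraries, and its change did not pass the test (log2 fold change 0.21, SE 0.21, adjusted p = 0.522). The mapping cannot tell the transgene apart from the endogenous gene. Of 10 leukocyte markers, 8 were at 0 in every library with TGF-β, and their sum was 6.52 and 8.49 FPKM in EpH4 cells and 8.27 and 5.64 FPKM in EpRas cells. Of the other 2, Csf1r was lower, as described with the growth factors, and Cd68 was not called. Cd68 was higher in EpRas cells at an unadjusted p under 0.05 by limma, and it was called higher with quantile normalization. The sum of 9 endothelial markers was at most 0.624 FPKM. In bulk libraries, fewer cells of a type and less RNA per cell cannot be told apart.

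With TGF-β, 812 genes were higher and 1123 genes were lower in EpRas cells, which are 8.92% and 12.3% of the genes tested (21.3% in all). The median log2 fold change of all genes tested was -0.01. Of the called genes, 386 higher and 663 lower genes differed by at least 2-fold on the fitted scale. Both libraries of one line lay above both libraries of the other for each called gene, and the same held for 63% of all genes tested. The counts depended on the EpH4 libraries. Without the first EpH4 library with TGF-β, 306 genes were higher and 516 lower, and without the second 319 and 582, whereas 248 higher and 483 lower genes were called in each of the 4 fits that left out 1 library with TGF-β.

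The lines also differed without TGF-β, where 1598 genes (17.6%) were called in other libraries of the same fit. Of all calls with TGF-β, 1070 (55.3%) were also called without it, which is 67.0% of the calls made without TGF-β. The direction was the same for 1056 of these genes and opposite for 14. Another 865 genes were called only with TGF-β, which does not show that their line difference depended on TGF-β. The difference between the conditions was tested separately and passed for 73 genes.

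**Figure D1:**
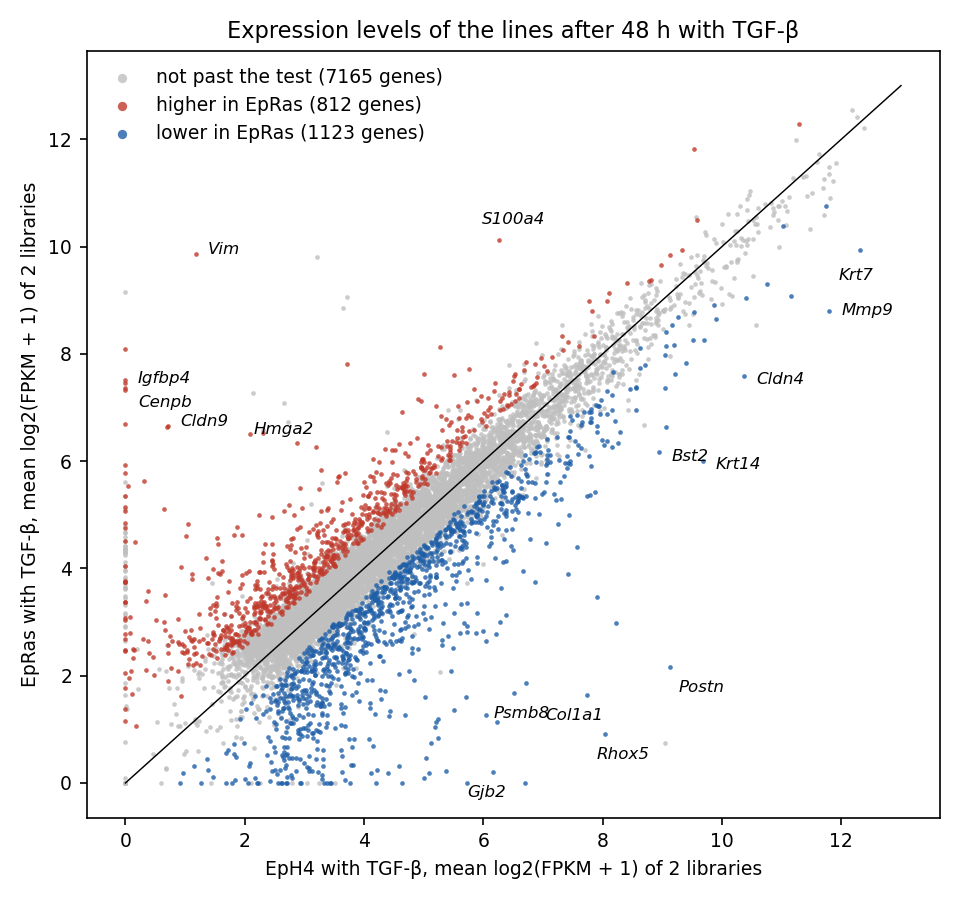
Mean log2(FPKM + 1) of the 2 EpH4 libraries with TGF-β (x axis) against that of the 2 EpRas libraries with TGF-β (y axis) for the 9100 genes tested. Genes higher in EpRas cells (812, red) and lower (1123, blue) spread away from the diagonal, and Vim, Igfbp4 and Cldn9 in the upper left and Gjb2, Postn and Col1a1 in the lower right are among the labelled genes.

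Among the genes with the largest increase was Vim, the intermediate filament protein of mesenchymal cells (chr2:13573927-13582826, + strand, mm10). Vim was at 1.88 and 0.777 FPKM in the EpH4 libraries and 939 and 915 FPKM in the EpRas libraries (log2 fold change 8.68, SE 0.24, adjusted p = 2.68e-06). Both EpH4 libraries held little of the transcript, and the EpRas libraries agreed closely at a high level. Igfbp4, a secreted protein that binds insulin-like growth factors, was listed at 0 in both EpH4 libraries and at 149 and 206 FPKM in the EpRas libraries (adjusted p = 2.6e-06). Cenpb, a centromere protein, was likewise listed at 0 in EpH4 cells and at 125 and 202 FPKM in EpRas cells (adjusted p = 3.6e-06). No fold can be given for these 2 genes. An exact 0 can be a failed estimate, since the ribosomal protein gene Rpl26 was also listed at 0 in both EpH4 libraries with TGF-β. In all, 30 of the higher genes were at 0 in both EpH4 libraries, and 23 of the lower genes were at 0 in both EpRas libraries.

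The other large increases spanned several functions. Isyna1, the enzyme that makes inositol phosphate from glucose 6-phosphate, was at 0.577 and 0.678 FPKM in the EpH4 libraries and 72 and 134 FPKM in the EpRas libraries (log2 fold change 5.93, SE 0.28, adjusted p = 1.94e-05). Grem1, a secreted antagonist of BMPs, was listed at 0 in both EpH4 libraries and was at 25.7 and 46 FPKM in the EpRas libraries (adjusted p = 3.85e-05). Cyba, a subunit of the NADPH oxidase, showed the same pattern with 25.3 and 30.2 FPKM in the EpRas libraries (adjusted p = 4.68e-06). Lmo1, a LIM-only transcriptional regulator, was at 4.34 and 2.37 FPKM in EpH4 cells against 68 and 119 FPKM in EpRas cells (log2 fold change 4.43, SE 0.35, adjusted p = 0.000191). In each case both EpRas libraries stood well above both EpH4 libraries.

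The largest decreases included genes of the germline and of the extracellular space. Rhox5, a homeobox gene of the reproductive tract, was at 286 and 240.3 FPKM in EpH4 cells and at 0 and 2.56 FPKM in EpRas cells (log2 fold change -7.12, SE 0.53, adjusted p = 0.000147). Tex101, a germ cell surface protein, was at 108 and 97.5 FPKM in EpH4 cells and listed at 0 in both EpRas libraries (adjusted p = 1.51e-06). Syce2, a protein of the meiotic synaptonemal complex, was at 44.1 and 36.8 FPKM against 0 and 0.36 FPKM (log2 fold change -5.15, SE 0.22, adjusted p = 1.31e-05). Of a list of 35 germline genes, these 3 alone were tested, and each reached 5 FPKM through EpH4 libraries, so that their common direction was set by the filter. Hspb1, a small heat shock protein, was at 302 and 295 FPKM in the EpH4 libraries and 5.66 and 8.37 FPKM in the EpRas libraries (log2 fold change -5.24, SE 0.23, adjusted p = 1.62e-05). Slpi, a secreted inhibitor of leukocyte proteases, was at 97.2 and 111 FPKM in EpH4 cells against 3.53 and 1.89 FPKM in EpRas cells (log2 fold change -4.86, SE 0.25, adjusted p = 2.83e-05). These decreases were present without TGF-β as well, with log2 fold changes of -6.94 for Rhox5, -5.52 for Hspb1 and -2.85 for Slpi.

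A broad decrease concerned cell junctions. Of 47 genes of epithelial junctions and polarity, 39 were tested, of which 26 were lower and 2 were higher in EpRas cells, with a median log2 fold change of -1.33. The corresponding shares over all genes tested were 12.3% and 8.92%. Tight junctions seal the space between cells and are built of claudins and occludin, adherens junctions hold cells together through E-cadherin, desmosomes anchor keratins, and gap junctions connect the cytoplasm of neighbours. Genes of all 4 structures were among the lower ones. The count of lower genes was between 22 and 28 when single libraries were left out. Of the 26, 7 reached 5 FPKM in EpH4 libraries only, and such genes could be tested only because they were high in that line. With a mean of at least 10 FPKM over all libraries, which left 30 junction genes, 18 were lower and 2 were higher. Over all genes tested, 328 of the 1123 lower genes reached 5 FPKM in EpH4 libraries only and 229 of the 812 higher genes in EpRas libraries only.

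Because E-box elements with the letters CAGGTG are the sites to which the EMT repressors of the Snail and ZEB families are known to bind, they were searched on both strands in the promoters of the genes tested (300 bases, from 250 before to 50 after the annotated start, RefSeq sequences on GRCm38.p6). The motif was in 17.3% of 8370 promoters of 6523 genes, in 24.7% of those of lower genes and in 13.7% of those of higher genes. Among junction genes, it was in 11 of 16 promoters of lower genes (68.8%) and in 4 of 13 promoters of genes that were not called (30.8%), with several promoters for some genes and a promoter for 13 of the 26 lower genes. Cldn6, a junction gene that was higher, also held 2 matches. Other motifs were searched in the same way, and in these sets CAGGTA was in 2 of 16 and 1 of 13 promoters, the ETS core CCGGAA in 6 of 16 and 6 of 13, the AP-1 motif TGANTCA in 2 of 16 and 2 of 13, and the RUNX motif TGTGGT in 0 of 16 and 1 of 13. Over all promoters they were in 8.34%, 29.6%, 5.01% and 11.9%, respectively. The ETS core was in 18.1% of promoters of lower and 23.5% of higher genes, against 32.1% of those not called. In lists described below, CAGGTG was in 2 of 10 promoters of lower and 0 of 3 of uncalled epithelial regulators. It was in 6 of 21 and 2 of 16 for interferon genes, and in 1 of 14 and 3 of 11 for other matrix genes. A match is a description and not evidence of binding. The promoters of 4 lower junction genes are shown because these genes are described below and hold the motif, with the motif or its reverse complement in capitals. They lie at chr5:134946885-134947184, - strand for Cldn4, chr11:69965171-69965470, + strand for Cldn7, chr17:87635729-87636028, + strand for Epcam and chr14:57104653-57104952, - strand for Gjb2, and each is written 5′ to 3′ along its gene.
Cldn4: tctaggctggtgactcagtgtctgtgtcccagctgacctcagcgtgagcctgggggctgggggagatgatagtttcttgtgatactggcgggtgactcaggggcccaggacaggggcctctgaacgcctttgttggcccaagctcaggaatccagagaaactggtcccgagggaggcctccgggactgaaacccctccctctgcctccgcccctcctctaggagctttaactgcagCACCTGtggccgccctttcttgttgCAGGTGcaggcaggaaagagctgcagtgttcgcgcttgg
Cldn7: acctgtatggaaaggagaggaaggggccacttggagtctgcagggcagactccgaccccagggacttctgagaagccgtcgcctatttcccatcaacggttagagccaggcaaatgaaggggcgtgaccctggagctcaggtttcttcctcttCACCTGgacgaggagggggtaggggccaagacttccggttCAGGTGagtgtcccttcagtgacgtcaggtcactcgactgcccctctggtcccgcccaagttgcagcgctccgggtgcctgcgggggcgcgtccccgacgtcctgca
Epcam: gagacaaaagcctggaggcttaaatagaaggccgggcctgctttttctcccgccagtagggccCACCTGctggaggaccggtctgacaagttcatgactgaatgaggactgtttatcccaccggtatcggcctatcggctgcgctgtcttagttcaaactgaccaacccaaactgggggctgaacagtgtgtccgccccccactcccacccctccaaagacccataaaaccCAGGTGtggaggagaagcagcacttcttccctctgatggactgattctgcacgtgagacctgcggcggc
Gjb2: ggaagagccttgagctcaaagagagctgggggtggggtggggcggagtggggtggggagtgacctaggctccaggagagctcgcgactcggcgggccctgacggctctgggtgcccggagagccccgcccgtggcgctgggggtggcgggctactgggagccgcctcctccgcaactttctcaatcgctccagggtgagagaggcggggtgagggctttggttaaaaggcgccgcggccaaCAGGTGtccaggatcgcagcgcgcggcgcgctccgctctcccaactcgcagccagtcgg

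The promoters shown for Cldn4, Cldn7 and Epcam each held 2 matches, and that of Gjb2 held 1. Cldn7 has 2 annotated promoters, of which the one with matches is shown, and the other, at chr11:69964529-69964828, held 0. Gjb2 encodes connexin 26, a gap junction channel, and was at 73.9 and 66.8 FPKM in the EpH4 libraries and 0.0901 and 0.232 FPKM in the EpRas libraries (log2 fold change -5.94, SE 0.16, adjusted p = 2.68e-06). Cldn4, a claudin of tight epithelia, was at 1413 and 1241 FPKM in the EpH4 libraries and 123 and 299 FPKM in the EpRas libraries (log2 fold change -2.78, SE 0.40, adjusted p = 0.003). The EpRas libraries differed from each other for Cldn4, but both were below the EpH4 libraries. Epcam, an adhesion molecule of epithelial cells, was at 531 and 534 FPKM in EpH4 cells against 64.9 and 149 FPKM in EpRas cells (log2 fold change -2.42, SE 0.38, adjusted p = 0.00453). Cldn7, another claudin, was at 155 and 159 FPKM in EpH4 cells against 35.2 and 41.8 FPKM in EpRas cells (log2 fold change -2.0, SE 0.15, adjusted p = 0.000163). Its 2 libraries of each line agreed closely.

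Other members followed. Pvrl4 (nectin-4), an adhesion receptor of adherens junctions, was at 79.7 and 69.2 FPKM in the EpH4 libraries and 1.11 and 1.27 FPKM in the EpRas libraries (log2 fold change -5.11, SE 0.15, adjusted p = 2.68e-06). Cdh1, E-cadherin, was at 93.7 and 85 FPKM in EpH4 cells against 20.6 and 18.2 FPKM in EpRas cells (log2 fold change -2.15, SE 0.15, adjusted p = 0.000114), and its log2 fold change without TGF-β was -0.96. The difference between the conditions did not pass the test for Cdh1 (difference -1.19 on the log2 scale, SE 0.22, adjusted p = 0.0705). Among desmosomal genes, Pkp1 (plakophilin 1) was at 229 and 219 FPKM in EpH4 cells against 43.1 and 80.7 FPKM in EpRas cells (log2 fold change -1.90, SE 0.29, adjusted p = 0.00378). Dsp (desmoplakin) was at 29.1 and 24.8 FPKM in EpH4 cells against 9.53 and 10 FPKM in EpRas cells (log2 fold change -1.37, SE 0.15, adjusted p = 0.000763). Marveld3, a tight junction protein related to occludin, was at 13.6 and 9.31 FPKM in EpH4 cells against 1.29 and 2.05 FPKM in EpRas cells (log2 fold change -2.21, SE 0.23, adjusted p = 0.000661). Both EpRas libraries were below both EpH4 libraries for each of these genes.

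Not all junction genes were lower. Ctnna1, α-catenin, was at 139 and 134 FPKM in the EpH4 libraries and 133 and 110.1 FPKM in the EpRas libraries, and Perp, a desmosomal membrane protein, was at 59.2 and 62.7 FPKM in the EpH4 libraries and 66.5 and 46.4 FPKM in the EpRas libraries. Neither passed the test, with adjusted p of 0.504 and 0.661, and the libraries of the lines overlapped for Perp. The 2 higher members were the neighbouring claudin genes Cldn9 (chr17:23682584-23684026, - strand) and Cldn6 (chr17:23679249-23682446, + strand). Cldn9 was at 0.76 and 0.511 FPKM in the EpH4 libraries and 96.5 and 104 FPKM in the EpRas libraries (log2 fold change 5.96, SE 0.28, adjusted p = 1.93e-05). Cldn6, a claudin of embryonic epithelia, was at 0.543 and 0 FPKM in EpH4 cells and 42.3 and 55.4 FPKM in EpRas cells (log2 fold change 5.31, SE 0.30, adjusted p = 4.1e-05). Thus 2 claudin genes were among the 15 largest increases, whereas Cldn1, Cldn3, Cldn4 and Cldn7 were lower. Both higher genes reached 5 FPKM in EpRas libraries only.

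**Figure D2:**
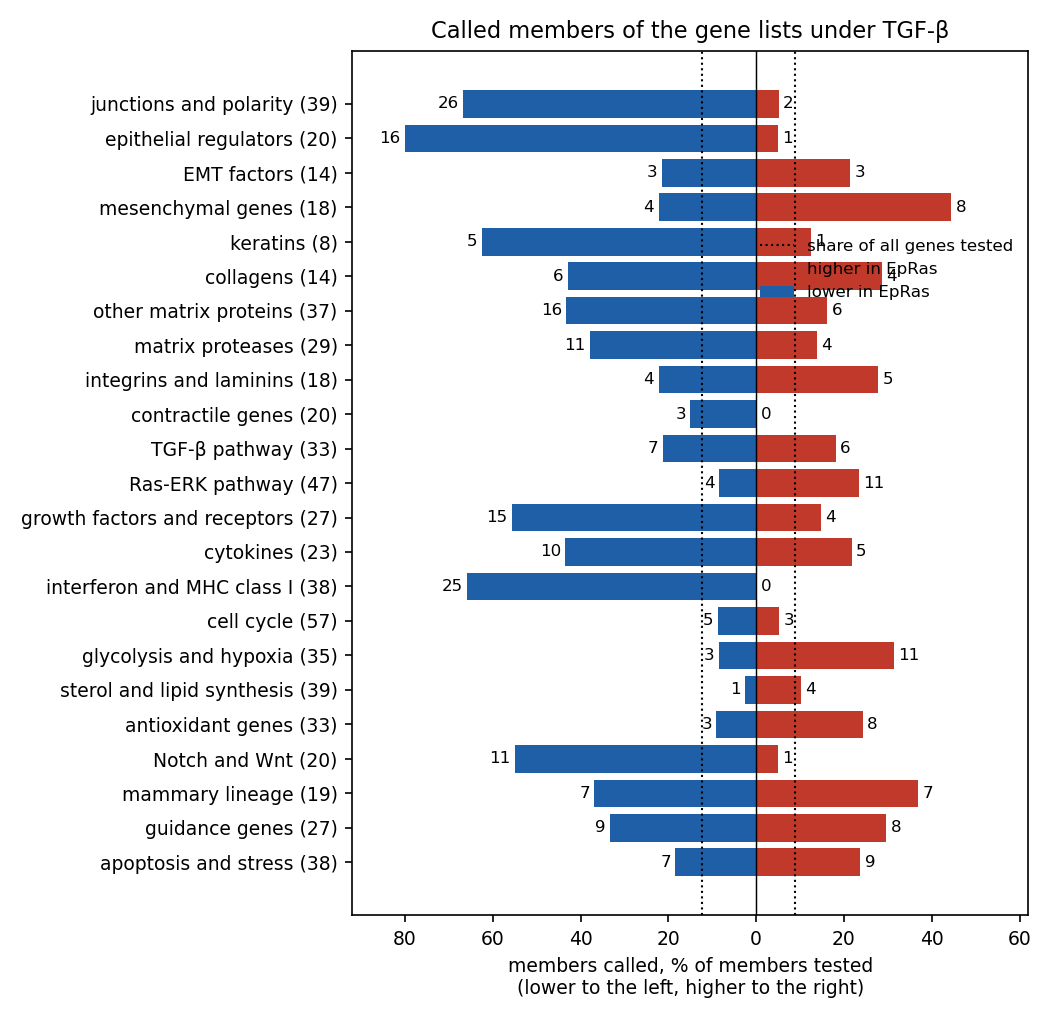
Share of the tested members of the gene lists drawn that were called higher (red, to the right) or lower (blue, to the left) in EpRas cells with TGF-β, in percent, with the number of called members beside each bar and the number tested in parentheses. Dotted lines mark the shares over all genes tested, 8.92% higher and 12.3% lower, and among the lists drawn the bars for junctions, epithelial regulators, keratins and interferon genes reach furthest to the left.

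Regulators of the epithelial state were lower together. Of 20 genes tested, 16 were lower and 1 was higher, with a median log2 fold change of -1.38 and 11 to 16 lower genes when single libraries were left out. Of the lower genes, 2 reached 5 FPKM in EpH4 libraries only, and with a mean of at least 10 FPKM 10 of 13 were lower and 0 were higher. Trp63, the p63 transcription factor of basal epithelial cells, was at 4.64 and 5.52 FPKM in EpH4 cells and listed at 0 in both EpRas libraries (adjusted p = 6.71e-05). St14, the membrane protease matriptase, was at 234 and 209 FPKM in the EpH4 libraries and 34 and 47.9 FPKM in the EpRas libraries (log2 fold change -2.42, SE 0.20, adjusted p = 0.000226). Esrp1, a splicing regulator of epithelial isoforms, was at 58.5 and 58.4 FPKM in EpH4 cells against 14.5 and 18 FPKM in EpRas cells (log2 fold change -1.79, SE 0.22, adjusted p = 0.00152). Both libraries of EpRas cells were low for these genes. The transcription factors Grhl2, at 12 and 12.5 FPKM in EpH4 cells against 3.05 and 3.66 FPKM in EpRas cells (log2 fold change -1.61, SE 0.17, adjusted p = 0.000763), and Ovol2, at 8.36 and 11.3 FPKM in EpH4 cells against 2.66 and 1.81 FPKM in EpRas cells (log2 fold change -1.74, SE 0.23, adjusted p = 0.00201), which maintain epithelial gene expression, were also lower. The single higher gene was Klf5, a transcription factor of proliferating epithelia, at 5.27 and 3.96 FPKM in EpH4 cells against 10.4 and 13.1 FPKM in EpRas cells (log2 fold change 1.19, SE 0.18, adjusted p = 0.00377).

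Keratins form the intermediate filaments of epithelial cells. Of 8 keratin genes tested, 5 (62.5%) were lower and 1 (12.5%) was higher, against 12.3% and 8.92% of all genes tested. The median log2 fold change of the 8 genes was -1.92. Krt7 was among the most abundant transcripts of EpH4 cells and was at 5185 and 4941 FPKM in the EpH4 libraries and 845 and 1120.0 FPKM in the EpRas libraries (log2 fold change -2.38, SE 0.21, adjusted p = 0.000331). Krt14, a keratin of basal cells, was at 851 and 784 FPKM in EpH4 cells against 62.2 and 64.6 FPKM in EpRas cells (log2 fold change -3.67, SE 0.16, adjusted p = 1.35e-05). Krt17 was at 34.6 and 32.7 FPKM in EpH4 cells against 0.758 and 0.585 FPKM in EpRas cells (log2 fold change -4.38, SE 0.18, adjusted p = 1.3e-05). Both EpRas libraries were far below the EpH4 libraries for these 3 genes. Krt18, a keratin of simple epithelia, was abundant, at 1028 and 1035 FPKM in the EpH4 libraries and 868 and 1356 FPKM in the EpRas libraries, and did not pass the test (adjusted p = 0.86). Krt19 was listed at 0 in both EpH4 libraries and was at 17.1 and 27.4 FPKM in EpRas cells (adjusted p = 2.83e-05). It was the only higher keratin and reached 5 FPKM in EpRas libraries only. Of the 5 lower keratins, 2 reached 5 FPKM in EpH4 libraries only. With a mean of at least 10 FPKM, 4 of 7 keratins were lower and 1 was higher. The summed level of the mammary epithelial markers was 9178 and 8675 FPKM in the EpH4 libraries and 2457 and 4110 FPKM in the EpRas libraries. Krt7 alone made up 5185 and 4941 FPKM of the EpH4 sums and 845 and 1120.0 FPKM of the EpRas sums.

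Of 19 genes of the mammary lineages, 7 (36.8%) were higher and 7 (36.8%) were lower, against 8.92% and 12.3% of all genes tested. Procr, a receptor found on mammary stem cells, was at 31 and 27 FPKM in the EpH4 libraries and 166 and 122 FPKM in the EpRas libraries (log2 fold change 2.26, SE 0.22, adjusted p = 0.000464). Cd44, a hyaluronan receptor, was at 37.4 and 44.1 FPKM in EpH4 cells against 133 and 90.2 FPKM in EpRas cells (log2 fold change 1.41, SE 0.21, adjusted p = 0.00345). Lcn2, a secreted iron-binding protein of luminal cells, was at 15.2 and 17.8 FPKM in EpH4 cells and 0.305 and 0 FPKM in EpRas cells (log2 fold change -3.93, SE 0.35, adjusted p = 0.000319). The groups did not overlap for these genes.

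Genes of the mesenchymal state moved in both directions. Of 18 tested, 8 (44.4%) were higher and 4 (22.2%) were lower, against 8.92% and 12.3% of all genes tested, with a median of 0.21. Besides Vim, S100a4, a calcium-binding protein of motile cells, was at 79.3 and 71.9 FPKM in the EpH4 libraries and 964 and 1278 FPKM in the EpRas libraries, a ratio of means of 14.8 (log2 fold change 3.86, SE 0.17, adjusted p = 1.63e-05). Cdh2, N-cadherin, was at 0.212 and 0.0357 FPKM in EpH4 cells against 21.2 and 21.6 FPKM in EpRas cells (log2 fold change 4.32, SE 0.19, adjusted p = 1.39e-05). Cdh13, a cadherin anchored by a lipid tail, was at 1.13 and 1.59 FPKM in EpH4 cells against 8.17 and 7.58 FPKM in EpRas cells (log2 fold change 1.92, SE 0.17, adjusted p = 0.000312). The EpRas libraries were higher throughout. In the opposite direction, Eng, the TGF-β co-receptor endoglin, was at 116 and 115 FPKM in the EpH4 libraries and 9.83 and 15.5 FPKM in the EpRas libraries (log2 fold change -3.12, SE 0.26, adjusted p = 0.000236). Mcam, an adhesion molecule of the vessel wall, was at 82.3 and 81.5 FPKM in EpH4 cells against 16.7 and 16.4 FPKM in EpRas cells (log2 fold change -2.24, SE 0.14, adjusted p = 6.6e-05).

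Of 14 transcription factors of EMT tested, 3 (21.4%) were higher and 3 (21.4%) were lower, against 8.92% and 12.3% of all genes tested. All 3 lower genes reached 5 FPKM in EpH4 libraries only, so that the filter favoured their direction. With a mean of at least 10 FPKM, 2 of 11 were higher and 0 were lower. Hmga2, a chromatin protein induced by TGF-β in EMT, was at 8.79 and 7.5 FPKM in the EpH4 libraries and 75.9 and 76.6 FPKM in the EpRas libraries (log2 fold change 3.08, SE 0.27, adjusted p = 0.000287). Its libraries agreed closely in both lines. Wwtr1 (TAZ), a co-activator of the Hippo pathway, was at 25.4 and 25.1 FPKM in EpH4 cells against 40.5 and 45 FPKM in EpRas cells (log2 fold change 0.74, SE 0.15, adjusted p = 0.0132), and the call was lost without the first or the second EpH4 library (adjusted p = 0.0928 and 0.0935, range 0.00819 to 0.0935 over the alternatives). The third, Twist1, was at 11.2 and 8.77 FPKM in EpH4 cells against 15.3 and 17.9 FPKM in EpRas cells (log2 fold change 0.68, SE 0.20, adjusted p = 0.0485), and was called under 3 of 13 alternatives (adjusted p from 0.0378 to 0.262). Its call was lost when any 1 of the 4 libraries was left out, with 0.1 or 5 FPKM added, without the filter, with a mean of at least 10 FPKM, with the TGF-β groups alone and with the replicate block. Snai1 was at 32.9 and 31.2 FPKM in the EpH4 libraries and 31 and 44.4 FPKM in the EpRas libraries and did not pass the test (adjusted p = 0.602). The related genes Snai3, at 3.23 and 3.2 FPKM in EpH4 cells against 0.143 and 0.368 FPKM in EpRas cells (log2 fold change -1.75, SE 0.17, adjusted p = 0.000446), and Twist2, at 2.12 and 4.57 FPKM in EpH4 cells and listed at 0 in EpRas cells (adjusted p = 0.00636), were lower. Zeb1 and Zeb2, repressors of E-cadherin, did not reach 5 FPKM and were not tested. Zeb1 was at 0.168 and 0.538 FPKM in the EpH4 libraries and 3.5 and 2.91 FPKM in the EpRas libraries, and Zeb2 was at 0.953 and 0.997 FPKM in the EpH4 libraries and 2.87 and 2.01 FPKM in the EpRas libraries, so that the EpRas libraries were higher for both at a low level.

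**Figure D3:**
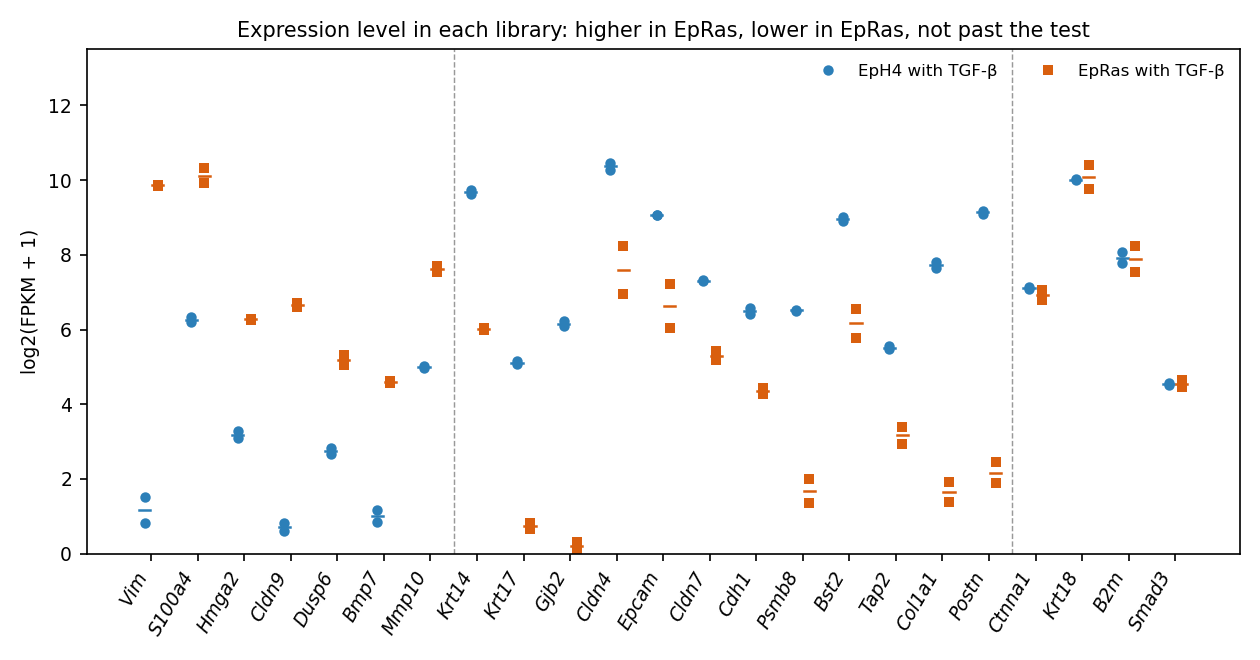
Level of 23 genes in each of the 4 libraries with TGF-β, as log2(FPKM + 1), with EpH4 libraries as blue circles, EpRas libraries as orange squares and their means as short lines. Dashed lines separate 7 genes that were higher in EpRas cells, 12 that were lower and 4 that did not pass the test, and for the first 2 sets the libraries of the lines do not overlap.

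Collagen genes differed in direction. Of 14 tested, 4 (28.6%) were higher and 6 (42.9%) were lower, against 8.92% and 12.3% of all genes tested, with a median of -0.56. All 6 lower genes reached 5 FPKM in EpH4 libraries only, and 2 of the 4 higher genes in EpRas libraries only. With a mean of at least 10 FPKM, 1 was higher and 1 was lower of 5. The fibrillar collagen chain Col1a1, the main protein of connective tissue fibres, was at 224 and 200.0 FPKM in the EpH4 libraries and 1.59 and 2.78 FPKM in the EpRas libraries (log2 fold change -6.09, SE 0.21, adjusted p = 5.47e-06). Its partner Col1a2 was at 13.2 and 12.3 FPKM in EpH4 cells against 0.12 and 0.413 FPKM in EpRas cells (log2 fold change -3.45, SE 0.20, adjusted p = 4.1e-05). Both EpRas libraries were low for the 2 chains. The basement membrane collagens Col4a1 (chr8:11198423-11312826, - strand) and Col4a2 (chr8:11312805-11449287, + strand), which are neighbours on opposite strands, were listed at 0 in both EpH4 libraries. In EpRas cells Col4a1 was at 11.2 and 13.8 FPKM (adjusted p = 1.3e-05) and Col4a2 at 9.12 and 9.64 FPKM (adjusted p = 3.42e-05). Another basement membrane chain, Col4a4, was lower at 16.8 and 13.9 FPKM in EpH4 cells against 3.99 and 4.97 FPKM in EpRas cells (log2 fold change -1.58, SE 0.16, adjusted p = 0.000641). The fibroblast markers Col1a1, Col1a2 and Pdgfrb, the 3 of that marker list that were tested, were all lower in the fit to all 8 libraries. Of these, 2 reached 5 FPKM in EpH4 libraries only. Among the markers not tested, Pdgfra was at 2.27 and 2.07 FPKM in EpH4 cells against 2.9 and 2.57 FPKM in EpRas cells. Col3a1 was at 0.22 and 0.118 FPKM against 0 and 0.0476 FPKM, and Dcn, Lum, Thy1 and Fap were at 0 with TGF-β. Pdgfrb (adjusted p = 0.0395) was called under 4 of 12 alternatives, with an adjusted p from 0.0162 to 0.229. Its call was lost without the first or second EpH4 or the first EpRas library (0.229, 0.123 and 0.108), and with 5 FPKM added, quantile normalization, the TGF-β groups alone, a variance trend or the replicate block. The sum of the fibroblast marker list was 247 and 222 FPKM in EpH4 cells and 8.42 and 11.1 FPKM in EpRas cells. Without Col1a1 and Col1a2 it was 10.7 and 9.4 FPKM against 6.71 and 7.95 FPKM.

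Of 37 other matrix genes tested, 6 (16.2%) were higher and 16 (43.2%) were lower, against 8.92% and 12.3% of all genes tested. Their median was -0.56. When either EpH4 library with TGF-β was left out, 1 was higher and 10 were lower. Postn, periostin, a matrix protein induced by TGF-β, was at 546 and 577 FPKM in the EpH4 libraries and 4.45 and 2.71 FPKM in the EpRas libraries, a 157-fold lower mean (log2 fold change -6.97, SE 0.20, adjusted p = 2.68e-06). Tnfrsf11b, the secreted decoy receptor osteoprotegerin, was at 13.8 and 18.4 FPKM in EpH4 cells against 1.21 and 0.39 FPKM in EpRas cells (log2 fold change -3.27, SE 0.29, adjusted p = 0.00032). Wisp1, a matricellular protein, was at 26.5 and 27.3 FPKM in EpH4 cells against 6.71 and 3.28 FPKM in EpRas cells (log2 fold change -2.28, SE 0.33, adjusted p = 0.00308). Ctgf, a matricellular protein of the same family and a target of TGF-β, was at 1388 and 1302 FPKM in EpH4 cells against 474 and 589 FPKM in EpRas cells (log2 fold change -1.35, SE 0.20, adjusted p = 0.00333). For Wisp1 and Ctgf, the difference without TGF-β did not pass the test (adjusted p = 0.48 and 0.419), and neither did the difference between the conditions (0.18 and 0.0635). Sparc, an abundant matrix protein, was at 943 and 889 FPKM in the EpH4 libraries and 726 and 593 FPKM in the EpRas libraries and was not called (adjusted p = 0.117).

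Matrix proteases and their inhibitors were lower in 11 (37.9%) and higher in 4 (13.8%) of 29 genes, against 12.3% and 8.92% of all genes tested. Mmp9, a gelatinase, was at 3933 and 3205 FPKM in the EpH4 libraries and 335 and 596 FPKM in the EpRas libraries (log2 fold change -2.99, SE 0.29, adjusted p = 0.000427). Without TGF-β its difference did not pass the test (adjusted p = 0.218), and neither did the difference between the conditions (0.0537). Mmp14, a membrane-bound collagenase, was at 226 and 208 FPKM in EpH4 cells against 67.3 and 67.2 FPKM in EpRas cells (log2 fold change -1.67, SE 0.16, adjusted p = 0.000444). Adamts4, a proteoglycan-cleaving protease, was at 78.1 and 75.6 FPKM in EpH4 cells against 5.89 and 8.31 FPKM in EpRas cells (log2 fold change -3.28, SE 0.23, adjusted p = 0.000101). These 3 genes were low in both EpRas libraries. Timp3, an inhibitor of metalloproteases, was lower as well, at 73.4 and 81.9 FPKM in EpH4 cells against 12.1 and 10.8 FPKM in EpRas cells (log2 fold change -2.66, SE 0.17, adjusted p = 6.28e-05). Mmp10, stromelysin 2, was higher at 31.4 and 30.5 FPKM in EpH4 cells against 206 and 185 FPKM in EpRas cells (log2 fold change 2.62, SE 0.21, adjusted p = 0.0002). Plaur, the urokinase receptor, was higher at 102 and 106 FPKM in EpH4 cells against 204 and 260.5 FPKM in EpRas cells (log2 fold change 1.14, SE 0.18, adjusted p = 0.00459). Mmp13, a collagenase, was at 26.5 and 27 FPKM in the EpH4 libraries and 36.8 and 31.8 FPKM in the EpRas libraries and did not pass the test (adjusted p = 0.172), although it was higher in EpRas cells without TGF-β (log2 fold change 1.40, SE 0.16, adjusted p = 0.00149). For Mmp13 the difference between the conditions did not pass the test (adjusted p = 0.128).

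Integrins and laminins attach cells to the matrix. Of 18 genes, 5 (27.8%) were higher and 4 (22.2%) were lower, against 8.92% and 12.3% of all genes tested. Itga6, an integrin chain that binds laminin, was at 8.49 and 8.32 FPKM in the EpH4 libraries and 24.8 and 21 FPKM in the EpRas libraries (log2 fold change 1.34, SE 0.18, adjusted p = 0.00191). Itgb5, an integrin chain that binds vitronectin, was at 316 and 294 FPKM in EpH4 cells against 73.8 and 85.8 FPKM in EpRas cells (log2 fold change -1.92, SE 0.17, adjusted p = 0.000322). Itgb6, a chain of an integrin that activates latent TGF-β, was at 5.86 and 4.94 FPKM in EpH4 cells against 0.735 and 0.835 FPKM in EpRas cells (log2 fold change -1.84, SE 0.18, adjusted p = 0.000427). The integrins that were named thus differed in direction. Of 20 contractile genes, 3 (15%) were lower, near the 12.3% of all genes tested, and 0 were higher by limma with Benjamini-Hochberg adjustment. At an unadjusted p under 0.05, 5 were lower and 1 was higher, and 1 was called higher without the second EpRas library. That fit called 6 contractile genes lower. Acta2, smooth muscle actin, was at 8.22 and 8.64 FPKM in EpH4 cells against 1.89 and 2.26 FPKM in EpRas cells (log2 fold change -1.62, SE 0.21, adjusted p = 0.00162).

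In the TGF-β pathway itself, 6 of 33 genes (18.2%) were higher and 7 (21.2%) were lower, against 8.92% and 12.3% of all genes tested. Without the first EpH4 library the counts were 3 and 4, without the second 1 and 4, and 3 genes were higher without the second EpRas library. Among ligands, Bmp7 was at 0.802 and 1.26 FPKM in the EpH4 libraries and 23.8 and 22.8 FPKM in the EpRas libraries (log2 fold change 3.59, SE 0.17, adjusted p = 1.72e-05). Tgfb2 was at 6.83 and 6.66 FPKM in EpH4 cells against 2.06 and 2.14 FPKM in EpRas cells (log2 fold change -1.32, SE 0.14, adjusted p = 0.000611). Smurf1, a ubiquitin ligase that removes Smads and receptors, was at 97.7 and 92.1 FPKM in EpH4 cells against 29.1 and 35.6 FPKM in EpRas cells (log2 fold change -1.53, SE 0.15, adjusted p = 0.000556). Smad3, a signal transducer of the receptor, was at 22.7 and 21.8 FPKM in the EpH4 libraries and 23.9 and 20.8 FPKM in the EpRas libraries and did not pass the test (adjusted p = 0.985).

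The Ras-ERK pathway and its feedback genes were higher in 11 (23.4%) and lower in 4 (8.51%) of 47 genes, with a median of 0.21. Without the first EpH4 library, 4 were higher and 0 lower, and without the second 5 and 0, and 2 were lower without the first EpRas library. Feedback phosphatases that remove phosphate from MAP kinases were among the higher genes. Dusp6 was at 5.36 and 6.11 FPKM in the EpH4 libraries and 39.1 and 32 FPKM in the EpRas libraries (log2 fold change 2.44, SE 0.17, adjusted p = 0.000108). Dusp5 was at 18.1 and 18 FPKM in EpH4 cells against 54.9 and 69.9 FPKM in EpRas cells (log2 fold change 1.73, SE 0.19, adjusted p = 0.000919). Dusp1 was at 10.4 and 8.47 FPKM in EpH4 cells against 28.3 and 38.7 FPKM in EpRas cells (log2 fold change 1.71, SE 0.21, adjusted p = 0.00134). For these 3 phosphatases the lowest EpRas library was more than 2-fold above the highest EpH4 library.

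Of 27 genes of growth factors and their receptors, 15 (55.6%) were lower and 4 (14.8%) were higher, with a median of -0.66. The shares over all genes tested were 12.3% and 8.92%. Among the called members, 5 lower genes reached 5 FPKM in EpH4 libraries only and 1 higher gene in EpRas libraries only. Without the first EpH4 library 6 were lower and 1 was higher, and without the second 7 and 1. Hbegf, a ligand of the EGF receptor, was at 50.4 and 53.8 FPKM in the EpH4 libraries and 119.7 and 157 FPKM in the EpRas libraries (log2 fold change 1.38, SE 0.21, adjusted p = 0.00363). Gas6, a ligand of receptor tyrosine kinases, was at 20.2 and 20.6 FPKM in EpH4 cells against 1.24 and 1.49 FPKM in EpRas cells (log2 fold change -3.18, SE 0.22, adjusted p = 0.000102). Pdgfb, a platelet-derived growth factor, was at 266 and 249 FPKM in EpH4 cells against 63.1 and 96.2 FPKM in EpRas cells (log2 fold change -1.71, SE 0.26, adjusted p = 0.00348). The first of these 3 ligands was higher and the others were lower in both EpRas libraries. The receptor Csf1r was at 6.23 and 5.74 FPKM in EpH4 cells against 1.13 and 1.53 FPKM in EpRas cells (log2 fold change -1.59, SE 0.17, adjusted p = 0.000763). Its ligand Csf1 was at 146 and 142 FPKM in EpH4 cells against 39.8 and 41.5 FPKM in EpRas cells (log2 fold change -1.80, SE 0.14, adjusted p = 0.000157).

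Cytokines and chemokines were lower in 10 (43.5%) and higher in 5 (21.7%) of 23 genes, against 12.3% and 8.92% of all genes tested. Cxcl10, a chemokine induced by interferons, was at 6.3 and 5.47 FPKM in EpH4 cells and 0.221 and 0 FPKM in EpRas cells (log2 fold change -2.64, SE 0.16, adjusted p = 5.84e-05). Il11, a cytokine of the interleukin-6 family, was at 0.542 and 0.728 FPKM in EpH4 cells against 4.33 and 5.71 FPKM in EpRas cells (log2 fold change 1.87, SE 0.22, adjusted p = 0.00114). Il34, a second ligand of Csf1r, was higher in EpRas cells at 5.75 and 6.58 FPKM in EpH4 cells against 21.6 and 16.3 FPKM in EpRas cells (log2 fold change 1.47, SE 0.22, adjusted p = 0.00351), in contrast to Csf1. Tslp, an epithelial cytokine, was at 1.01 and 0.679 FPKM in EpH4 cells against 4.9 and 5.48 FPKM in EpRas cells (log2 fold change 1.75, SE 0.26, adjusted p = 0.0037).

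A group of interferon-stimulated genes and genes of antigen presentation was lower in EpRas cells. Interferons signal through factors that include Stat2 and Irf9 to response elements in the promoters of antiviral genes, and MHC class I molecules present peptides that are cut by the immunoproteasome and loaded with the help of the Tap transporter. Of 58 genes, 38 were tested, of which 25 were lower and 0 were higher by limma with Benjamini-Hochberg adjustment, with a median of -1.38. At an unadjusted p under 0.05, 28 were lower and 0 were higher. Of the 25 lower genes, 17 reached 5 FPKM in EpH4 libraries only, so that the filter favoured this direction, and with a mean of at least 10 FPKM 8 of 19 were lower and 0 were higher. The lower count was 20 to 25 without single libraries, and 1 gene, H2-K1, was higher without the second EpRas library (adjusted p = 0.0273, range 0.0273 to 0.423 over the alternatives). The line difference itself depended on TGF-β for 2 of the 38 genes, against 0.802% of all genes tested.

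Promoters were also searched on both strands for the letters GAAA, followed by any 2 bases and GAAA again, an element bound by interferon regulatory factors, which was chosen after the values had been seen. It was in 2.68% of all 8370 promoters, in 7 of 21 promoters of lower interferon genes (33.3%) and in 4 of 16 promoters of those that were not called (25%). The promoters of Isg15 (chr4:156200769-156201068, - strand) and Bst2 (chr8:71537423-71537722, - strand) are shown as lower genes that carry overlapping copies of the element, with the matches in capitals.
Isg15: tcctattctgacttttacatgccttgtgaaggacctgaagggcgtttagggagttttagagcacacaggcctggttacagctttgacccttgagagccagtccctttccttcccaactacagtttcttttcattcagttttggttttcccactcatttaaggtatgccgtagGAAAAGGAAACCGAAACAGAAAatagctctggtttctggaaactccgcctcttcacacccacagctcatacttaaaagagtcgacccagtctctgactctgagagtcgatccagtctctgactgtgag
Bst2: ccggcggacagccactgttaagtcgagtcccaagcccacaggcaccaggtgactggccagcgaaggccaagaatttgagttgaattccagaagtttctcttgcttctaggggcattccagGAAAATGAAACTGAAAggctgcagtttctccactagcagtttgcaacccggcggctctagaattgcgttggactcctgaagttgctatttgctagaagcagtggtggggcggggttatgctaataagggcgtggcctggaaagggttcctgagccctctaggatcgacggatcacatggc

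Bst2, a membrane protein that tethers budding viruses, was at 476 and 512 FPKM in the EpH4 libraries and 53.8 and 92.7 FPKM in the EpRas libraries (log2 fold change -2.79, SE 0.29, adjusted p = 0.000611). Isg15, a ubiquitin-like modifier, was at 34 and 28.3 FPKM in EpH4 cells against 8.59 and 9.21 FPKM in EpRas cells (log2 fold change -1.70, SE 0.31, adjusted p = 0.00825), and the call was lost without the first EpH4 library (adjusted p = 0.0724, range 0.00624 to 0.0724 over the alternatives). Usp18, the protease that removes Isg15 from proteins, was at 6.61 and 7.38 FPKM in EpH4 cells against 0.253 and 0.325 FPKM in EpRas cells (log2 fold change -2.63, SE 0.17, adjusted p = 7.65e-05). Irf7, a transcription factor of the interferon response, was at 6.79 and 6.9 FPKM in EpH4 cells against 1.56 and 1.14 FPKM in EpRas cells (log2 fold change -1.74, SE 0.27, adjusted p = 0.0044). Without TGF-β, Irf7 did not pass the test (adjusted p = 0.991), and neither did the difference between the conditions (0.139).

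Genes of antigen processing were among the lower ones. Psmb8, a catalytic subunit of the immunoproteasome (chr17:34197721-34201454, + strand), was at 89.6 and 91.1 FPKM in the EpH4 libraries and 1.55 and 3 FPKM in the EpRas libraries, a 39.7-fold lower mean (log2 fold change -4.84, SE 0.25, adjusted p = 2.8e-05). Psmb9, a second such subunit, was at 15.6 and 18.9 FPKM in EpH4 cells against 1.64 and 1.27 FPKM in EpRas cells (log2 fold change -2.89, SE 0.24, adjusted p = 0.000247). Tap2, a chain of the peptide transporter, was at 45.8 and 43.7 FPKM in EpH4 cells against 6.68 and 9.48 FPKM in EpRas cells (log2 fold change -2.35, SE 0.24, adjusted p = 0.00057). Tapbp, which loads peptides, was at 243 and 226 FPKM in EpH4 cells against 30.9 and 56 FPKM in EpRas cells (log2 fold change -2.46, SE 0.30, adjusted p = 0.00144). The MHC class I heavy chain H2-D1 was at 192 and 176 FPKM in the EpH4 libraries and 180.0 and 225 FPKM in the EpRas libraries, and B2m, the light chain, was at 218 and 269 FPKM in the EpH4 libraries and 298 and 185 FPKM in the EpRas libraries. Neither was called (adjusted p = 0.625 and 0.928), and the libraries of the lines overlapped for both.

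Genes of glycolysis and the hypoxia response were higher in 11 (31.4%) and lower in 3 (8.57%) of 35 genes, with a median of 0.28. Without the first EpH4 library 6 were higher and 0 lower, and without the second 3 and 0. Bnip3, a mitochondrial protein induced by hypoxia, was at 3.64 and 2.55 FPKM in the EpH4 libraries and 12.4 and 15.9 FPKM in the EpRas libraries (log2 fold change 1.89, SE 0.24, adjusted p = 0.00162). Pdk1, a kinase that restricts pyruvate oxidation, was at 1.86 and 2.09 FPKM in EpH4 cells against 5.99 and 4.55 FPKM in EpRas cells (log2 fold change 1.07, SE 0.16, adjusted p = 0.00389). The antioxidant genes were higher in 8 (24.2%) and lower in 3 (9.09%) of 33, with 2 and 3 higher without the first and the second EpH4 library, 4 higher without the first EpRas library and 6 lower without the second. G6pdx, the first enzyme of the pentose phosphate pathway, was at 14.6 and 19.2 FPKM in EpH4 cells against 60.2 and 70.4 FPKM in EpRas cells (log2 fold change 1.90, SE 0.20, adjusted p = 0.000643). Srxn1, which repairs oxidised peroxiredoxins, was at 10.9 and 12.3 FPKM in EpH4 cells against 27.1 and 27.2 FPKM in EpRas cells (log2 fold change 1.16, SE 0.15, adjusted p = 0.00158). Hmox1, heme oxygenase 1, was lower at 69 and 72.7 FPKM in EpH4 cells against 26.3 and 31 FPKM in EpRas cells (log2 fold change -1.28, SE 0.20, adjusted p = 0.00416). In sterol and lipid synthesis, 4 genes (10.3%, near the 8.92% of all genes) were higher and 1 was lower of 39, or 2 and 0 when either EpH4 library was left out and 3 and 0 without the first EpRas library. Scd1, which makes unsaturated fatty acids, was at 21.4 and 21.7 FPKM in EpH4 cells against 52.6 and 53.4 FPKM in EpRas cells (log2 fold change 1.26, SE 0.16, adjusted p = 0.00157).

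Of 57 cell cycle genes, 3 (5.26%) were higher and 5 (8.77%) were lower, against 8.92% and 12.3% of all genes tested. When either EpH4 library was left out 0 were higher and 2 were lower, 0 and 3 were without the first EpRas library, and the fit without the second EpRas library called 5 and 9. Mki67, a marker of proliferating cells, was at 17.9 and 16.4 FPKM in the EpH4 libraries and 20.3 and 16.9 FPKM in the EpRas libraries and did not pass the test (adjusted p = 0.688). Ccnd1, cyclin D1, was at 404 and 385 FPKM in the EpH4 libraries and 304 and 444 FPKM in the EpRas libraries and was not called (adjusted p = 0.783). The regulators Ccnd2, cyclin D2, at 4.32 and 4.73 FPKM in EpH4 cells against 0.249 and 0.0917 FPKM in EpRas cells (log2 fold change -2.24, SE 0.16, adjusted p = 0.000123), and Cdkn1b, the cyclin-dependent kinase inhibitor p27, at 85 and 75.4 FPKM in EpH4 cells against 20.4 and 24.8 FPKM in EpRas cells (log2 fold change -1.79, SE 0.19, adjusted p = 0.000683), were lower.

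The line difference depended on TGF-β for 73 genes (0.802%), or 65 when microRNA and other small RNA genes were left out. It was lower with TGF-β than without it for 57 (53 without small RNA genes) and higher for 16 (12 without them). It passed for 10 and 11 genes without the first and the second EpH4 library with TGF-β, and for 38 and 127 without the first and the second EpRas library. Some of them are given here with their values in all 8 libraries. Lrrc32, a membrane protein that holds latent TGF-β on the cell surface, was at 1.79 and 1.53 FPKM in untreated EpH4 cells and 34.1 and 28.5 FPKM with TGF-β, while EpRas cells were at 0.0773 and 0 and 0.0549 and 0.0706 FPKM (difference -3.56 on the log2 scale, SE 0.22, adjusted p = 0.00123). Col1a1 was at 18.7 and 21.2 FPKM in untreated EpH4 cells and 224 and 200.0 FPKM with TGF-β, against 1.8 and 1.57 and 1.59 and 2.78 FPKM in EpRas cells (difference -3.12 on the log2 scale, SE 0.29, adjusted p = 0.00729). Wnt9a, a Wnt ligand, was at 8.63 and 8.7 FPKM in untreated EpH4 and 8.88 and 9.06 FPKM in untreated EpRas cells, and at 47.5 and 49.1 and 9.04 and 9.09 FPKM, respectively, with TGF-β (difference -2.34 on the log2 scale, SE 0.19, adjusted p = 0.00386). For these 3 genes the EpH4 libraries were higher with TGF-β, and the EpRas libraries were near the same level in both conditions. When the first or the second EpH4 library with TGF-β was left out, Lrrc32 still passed, and Col1a1 (adjusted p = 0.0719 and 0.0575) and Wnt9a (0.0501 and 0.0513) did not. Over all alternatives the adjusted p was between 0.00187 and 0.0719 for Col1a1 and between 0.00249 and 0.0513 for Wnt9a.

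Col27a1, a fibrillar collagen of cartilage, was at 0.183 and 0.203 FPKM in untreated EpH4 cells and 12.5 and 13.2 FPKM with TGF-β, and at 0.15 and 0.0202 and 0.481 and 0.721 FPKM in EpRas cells (difference -2.98 on the log2 scale, SE 0.22, adjusted p = 0.00257). Cd74, the chaperone of MHC class II molecules, was at 5.18 and 5.41 FPKM in untreated EpH4 cells and 35.1 and 38.9 FPKM with TGF-β, and at 0.821 and 0.882 and 0.583 and 1 FPKM in EpRas cells (difference -2.65 on the log2 scale, SE 0.23, adjusted p = 0.00608). Both had a wider gap between the lines with TGF-β. Aqp1, a water channel, was at 18.6 and 15.9 and 12.9 and 13.7 FPKM in EpH4 cells without and with TGF-β, and at 12.5 and 14.4 and 0.931 and 0.599 FPKM in EpRas cells (difference -2.68 on the log2 scale, SE 0.24, adjusted p = 0.00621). Here the EpRas libraries were lower with TGF-β than without it. Col27a1 passed under all alternatives that could be fitted, whereas Cd74 (0.052 and 0.0575) and Aqp1 (0.0623 and 0.0601) did not pass without the first or the second EpH4 library with TGF-β. Their adjusted p ranged from 0.0024 to 0.0575 for Cd74 and from 0.00576 to 0.0623 for Aqp1.

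Among 14 genes with opposite line differences in the 2 conditions were Acta2 and Cx3cl1. Acta2 was at 0.108 and 0.636 FPKM in untreated EpH4 cells and 1.24 and 1.33 FPKM in untreated EpRas cells, and at 8.22 and 8.64 and 1.89 and 2.26 FPKM with TGF-β (difference -2.38 on the log2 scale, SE 0.29, adjusted p = 0.0172). Cx3cl1, a membrane-bound chemokine, was at 12.8 and 9.18 FPKM in untreated EpH4 cells and 33.1 and 28.6 FPKM in untreated EpRas cells, and at 50.3 and 49.9 and 20.4 and 23.1 FPKM with TGF-β (difference -2.59 on the log2 scale, SE 0.27, adjusted p = 0.00854). EpRas cells were thus the higher line without TGF-β and the lower line with it. Rgs16, which limits signalling of G proteins, showed the reverse, with 11.7 and 11.4 FPKM in untreated EpH4 and 4.58 and 4.93 FPKM in untreated EpRas cells, and 22.9 and 22.1 and 47 and 40.7 FPKM with TGF-β (difference 2.06 on the log2 scale, SE 0.21, adjusted p = 0.00798). Without the first or the second EpH4 library with TGF-β, the difference between the conditions did not pass for Cx3cl1 and Rgs16 (adjusted p = 0.0899 and 0.0805 for both) or for Acta2 (0.132 and 0.121), which also missed the threshold without the first EpRas library (0.0672), with 0.1 FPKM added (0.108) and with a variance trend (0.0528). Over the alternatives the adjusted p ranged from 0.00664 to 0.0899 for Cx3cl1, from 0.00576 to 0.0899 for Rgs16 and from 0.017 to 0.132 for Acta2.

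**Figure D4:**
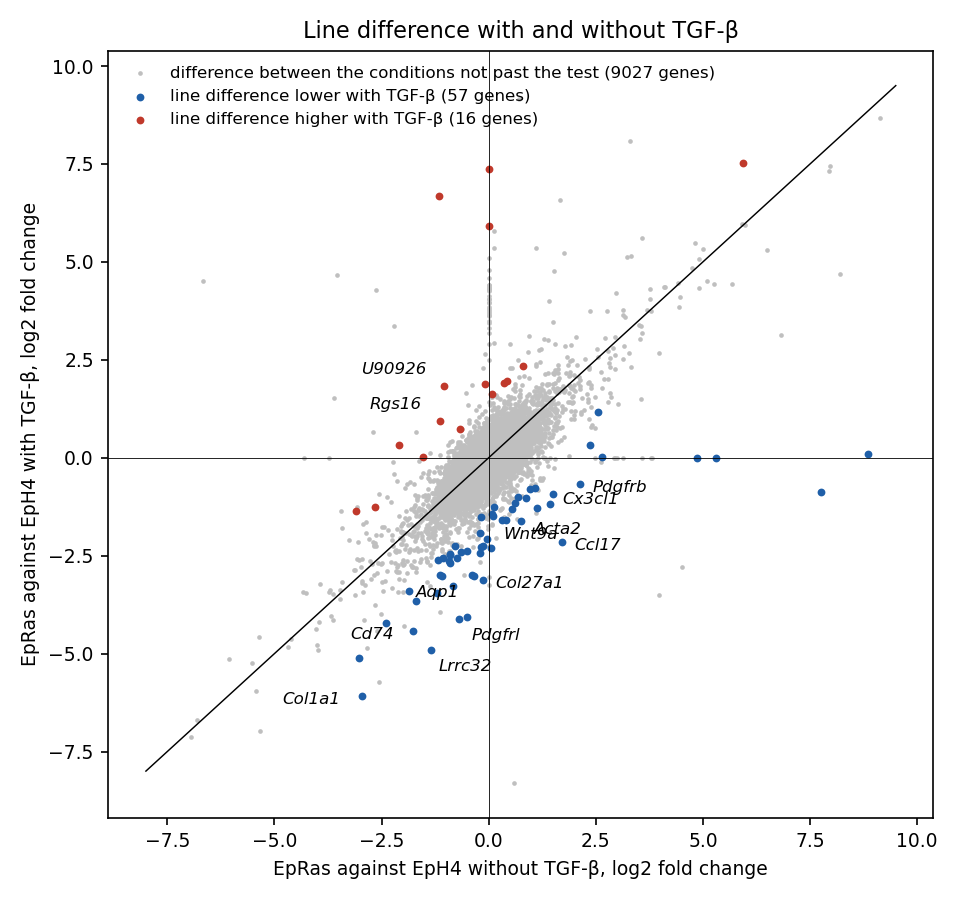
Line difference (log2 fold change, EpRas over EpH4) without TGF-β (x axis) against that with TGF-β (y axis) for the 9100 genes tested, on the log2(FPKM + 1) scale. Coloured points are the 73 genes for which the difference between both conditions passed the test, 57 of them below the diagonal (blue) and 16 above it (red).

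Called genes were unevenly spread over the genome, which was examined after the values had been seen. The median log2 fold change was 0.27 over 718 genes of chromosome 2 and 0.36 over 300 genes of chromosome 12, and it was -0.40 over 609 genes of chromosome 5 and -0.43 over 420 genes of chromosome 6. Of the genes of chromosome 12, 21.7% were higher and 4.00% lower, and of those of chromosome 6, 2.38% were higher and 27.1% lower. Chromosomes 5 and 6 held 11.3% of the genes tested and 25.6% of the lower genes, and chromosomes 2 and 12 held 11.2% of the genes and 28.9% of the higher genes. Outside all 4 chromosomes, 751 genes were lower and 529 were higher. Chromosomes 5 and 6 held 2 of the 26 lower junction genes, 3 of the 25 lower interferon genes and 4 of the 5 lower cell cycle genes, with Ccnd2 and Cdkn1b on chromosome 6. They also held 4 of the 9 lower guidance genes, and chromosomes 2 and 12 held 5 of the 9 higher genes of apoptosis and stress.

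The same chromosomes stood apart without TGF-β, in other libraries, with medians of 0.26 for chromosome 2, 0.33 for chromosome 12, -0.41 for chromosome 5 and -0.42 for chromosome 6. In 128 windows of 20 Mb with at least 20 genes, the medians with and without TGF-β had the same sign in 96. Their correlation was 0.904 over the windows, which share the lines and the fit. Between 120 and 140 Mb of chromosome 2, 60.2% of 103 genes were higher (median 0.75 with and 0.73 without TGF-β), while the window from 160 to 180 Mb of the same chromosome had a median of -0.41. In the first 20 Mb of chromosome X, 65.6% of 32 genes were lower (median -0.85). These are descriptions of position, and the number of DNA copies was not measured in these libraries.

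**Figure D5:**
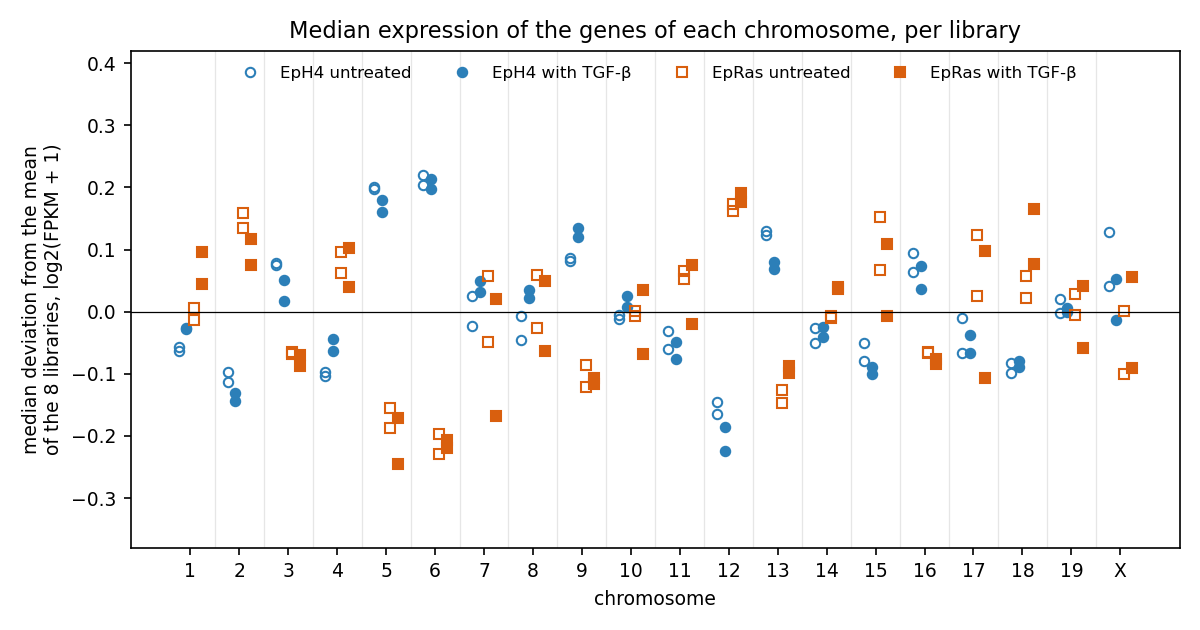
Median deviation of the genes of each chromosome from their mean over the 8 libraries, in log2(FPKM + 1), for each library, with circles for EpH4, squares for EpRas, open symbols for untreated cells and filled symbols for cells with TGF-β. All 4 EpRas libraries lie above all 4 EpH4 libraries for 8 of the 20 chromosomes, 2 and 12 among them, and below them for 6, among them 5 and 6.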

How the data were processed

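RNA-seq of 8 untransfected libraries (2 for each of 4 groups) was analysed. Per the labels and the study's methods, the authors sequenced oligo(dT)-selected RNA with an Ion Proton instrument. They used TopHat2 (2.0.11 in the submitters' processing notes) for alignment to mm10 and calculated FPKM with Cuffdiff of Cufflinks 2.2.0. The FPKM deposited by the authors were used as they stand, and the read number of each library was not used. FPKM are relative to the mapped fragments of a library, and their sum was 502262 to 633763 per library.

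Genes with an OK status and at least 5 FPKM in 1 or more libraries (9100) were fitted as log2(FPKM + 1) with limma 3.58.1 in R 4.3.3, with 1 mean per group. Benjamini-Hochberg adjustment covered all genes tested. The fit was tested on simulated data. Python 3.11.15, numpy 2.4.6, pandas 2.3.3 and matplotlib 3.10.9 were used for the rest. The text names genes from the 15 largest changes in each direction, up to 4 called genes in each direction of each gene list, and the 10 genes with the smallest p of the difference between the conditions. Further genes were named after their values were seen, and some genes that the rule names are not reported here. Members and lists were chosen with earlier results of these data known. Gene positions are from GENCODE on mm10, and promoters were matched by symbol for 6523 genes. The alternatives were other added constants (0.1 and 5 FPKM), other filters, scaling, variance models and groups in the fit, a replicate block and omission of single libraries.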

Additional observations from a re-analysis of the deposited data

Results flagged for a closer look

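The test of the difference between the conditions flagged 73 genes whose line difference with TGF-β was not the same as without it. Negative values mean that EpRas cells were lower relative to EpH4 cells with TGF-β than without it. On the log2 scale the difference between the conditions was -3.56 for Lrrc32, -2.98 for Col27a1, -2.34 for Wnt9a, -2.65 for Cd74, -2.68 for Aqp1, -2.80 for Pdgfrb, -3.12 for Col1a1, -3.41 for Pdgfrl and -1.94 for Gm12824. It was 2.87 for U90926, which was at 176 and 251 FPKM in untreated EpH4 cells and 35.3 and 36.6 FPKM with TGF-β, and at 109.8 and 93.7 and 138 and 122 FPKM in EpRas cells. For 3 genes with opposite line differences it was -2.38 (Acta2), -2.59 (Cx3cl1) and 2.06 (Rgs16). Pdgfrl, a protein related to the PDGF receptors, was at 12.3 and 7.17 FPKM in untreated EpH4 cells and 50.9 and 51.4 FPKM with TGF-β, and at 5.67 and 5.19 and 1.94 and 2.11 FPKM in EpRas cells. Without the first or the second EpH4 library with TGF-β, the test no longer passed for Pdgfrb (adjusted p = 0.0707 and 0.0535, range 0.00278 to 0.0707 over the alternatives), Pdgfrl (0.0719 and 0.064, range 0.00576 to 0.0719), Gm12824 (0.0899 and 0.0813, and 0.0927 with a variance trend, range 0.00886 to 0.0927) and U90926 (0.0899 and 0.071, range 0.00664 to 0.0899), and the same holds for Wnt9a, Cd74, Aqp1, Col1a1, Acta2, Cx3cl1 and Rgs16 with the values given above.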

How the results depend on the processing

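With 2 libraries per group, the spread rests on few values, and leaving out 1 EpH4 library assumes that the remaining one varies like the other groups. The table gives no read counts, so that low FPKM have an unknown counting error. Of 125 called genes named here, 118 kept their call and direction under each alternative in which they were tested, and 248 higher and 483 lower genes were called in all fits that left out 1 library.

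The number of higher genes was 459 with a mean of at least 10 FPKM and 517 with the TGF-β groups alone, and between 306 and 992 when single libraries were left out. The number of lower genes was 633 with a mean of at least 10 FPKM and between 516 and 1392 when single libraries were left out. The number of genes whose line difference depended on TGF-β was 117 without a filter, 24 with a mean of at least 10 FPKM, 45 with a variance trend, and between 10 and 127 when single libraries were left out. The filter on the mean tests fewer genes, and the causes of the other changes were not tested. With the replicate number as a block, 618 genes were higher, 902 were lower and 31 depended on TGF-β. The replicate differences of the groups correlated by -0.347 to 0.0785 across genes and by -0.00327 between EpH4 and EpRas cells with TGF-β. Whether libraries were handled in pairs cannot be read from these correlations.

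Some genes that were not called changed sign among the 4 fits without single libraries. Their log2 fold changes ranged from -0.38 to 0.30 for B2m, from -0.37 to 0.17 for Ccnd1, from -0.033 to 0.29 for H2-D1, from -0.25 to 0.39 for Krt18, from -0.025 to 0.23 for Mki67, from -0.38 to 0.12 for Perp, from -0.090 to 0.10 for Smad3 and from -0.047 to 0.46 for Snai1. The chromosome medians, which were added after seeing the data, kept their sign under all 13 alternatives, from 0.21 to 0.30 for chromosome 2, from 0.27 to 0.41 for chromosome 12, from -0.47 to -0.31 for chromosome 5 and from -0.46 to -0.31 for chromosome 6.

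Counts of higher and lower members of gene lists also moved with the filter and the groups in the fit. With a mean of at least 10 FPKM they were 2 and 0 for EMT factors, 6 and 2 for mesenchymal genes, 5 and 2 for integrins and laminins, 4 and 4 for the TGF-β pathway, 7 and 3 for Ras-ERK genes, 3 and 7 for growth factors, 3 and 6 for cytokines, 6 and 2 for glycolysis and hypoxia, 4 and 6 for guidance genes and 5 and 3 for apoptosis and stress. With the TGF-β groups alone they were 3 and 11 for other matrix proteins, 2 and 3 for integrins and laminins, 2 and 6 for the TGF-β pathway, 6 and 0 for Ras-ERK genes and 2 and 9 for growth factors. With the replicate block they were 7 and 1 for Ras-ERK genes and 1 and 3 for cell cycle genes. Without the filter, 2 EMT factors were higher and 5 were lower.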

Other observations

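Genes of axon guidance, which also steer the migration of other cells, were called often but in both directions. Of 27 tested, 8 (29.6%) were higher and 9 (33.3%) were lower, against 8.92% and 12.3% of all genes tested. Of the higher genes, 4 reached 5 FPKM in EpRas libraries only. The semaphorins Sema3a, at 1.67 and 1.58 FPKM in EpH4 cells against 17 and 10 FPKM in EpRas cells (log2 fold change 2.42, SE 0.23, adjusted p = 0.000437), and Sema7a, at 7.22 and 6.35 FPKM in EpH4 cells against 31.4 and 36.4 FPKM in EpRas cells (log2 fold change 2.16, SE 0.21, adjusted p = 0.000462), were higher. Sema3f was lower at 48.2 and 42.9 FPKM in EpH4 cells against 12.6 and 12.6 FPKM in EpRas cells (log2 fold change -1.77, SE 0.19, adjusted p = 0.000722), as were the ephrin receptor Epha1 at 96.9 and 104 FPKM in EpH4 cells against 14.9 and 14 FPKM in EpRas cells (log2 fold change -2.71, SE 0.18, adjusted p = 7.65e-05) and the guidance ligand Ntn1 at 57.4 and 48.6 FPKM in EpH4 cells against 13.6 and 15.8 FPKM in EpRas cells (log2 fold change -1.78, SE 0.16, adjusted p = 0.000369). Semaphorins of the same class thus differed in direction. In the Notch and Wnt pathways, 11 of 20 genes (55%) were lower and 1 (5%) was higher, against 12.3% and 8.92% of all genes tested. Of the lower genes, 3 reached 5 FPKM in EpH4 libraries only. The Wnt ligand Wnt11 was at 38.9 and 39.5 FPKM in EpH4 cells against 5.91 and 7.99 FPKM in EpRas cells (log2 fold change -2.35, SE 0.21, adjusted p = 0.00032), the Notch ligand Dll1 was at 7.9 and 7.72 FPKM in EpH4 cells against 0.799 and 0.791 FPKM in EpRas cells (log2 fold change -2.29, SE 0.17, adjusted p = 0.000158), and the Wnt antagonist Sfrp1 was at 5.66 and 5.21 FPKM in EpH4 cells against 0.571 and 0.306 FPKM in EpRas cells (log2 fold change -2.17, SE 0.17, adjusted p = 0.000169). A ligand and an antagonist of Wnt were therefore both lower.

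Of 38 genes of apoptosis and the stress response, 9 (23.7%) were higher and 7 (18.4%) were lower, against 8.92% and 12.3% of all genes tested. Of these, 4 lower genes reached 5 FPKM in EpH4 libraries only and 1 higher gene in EpRas libraries only. The targets of the integrated stress response Trib3, at 23 and 26.9 FPKM in EpH4 cells against 57.1 and 86 FPKM in EpRas cells (log2 fold change 1.46, SE 0.22, adjusted p = 0.00389), and Chac1, at 16.5 and 17.4 FPKM in EpH4 cells against 43.9 and 53.2 FPKM in EpRas cells (log2 fold change 1.46, SE 0.19, adjusted p = 0.00197), were higher. Among regulators of cell death, Bok was higher at 8.05 and 8.51 FPKM in EpH4 cells against 20.8 and 27.2 FPKM in EpRas cells (log2 fold change 1.42, SE 0.17, adjusted p = 0.00123), and Birc3, an inhibitor of apoptosis, was lower at 12 and 11 FPKM in EpH4 cells against 1.22 and 1.76 FPKM in EpRas cells (log2 fold change -2.34, SE 0.16, adjusted p = 0.000104). Gm20571 was listed at 0 in both EpH4 libraries and was called higher (adjusted p = 0.00481), but its EpRas libraries were at 71 and 9.2 FPKM and differed several-fold from each other.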
